A study of Rattus norvegicus with 8 samples.

Results

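Creatine kinases move a phosphate group between ATP and creatine, and adenylate kinases move one between adenine nucleotides, so together they buffer ATP and carry it through the cell. Muscle holds a cytosolic creatine kinase (Ckm), part of which sits at the M band of the sarcomere, and a sarcomeric mitochondrial one (Ckmt2) between the mitochondrial membranes. Ckb is the cytosolic form best known from brain and smooth muscle, and Ckmt1 the ubiquitous mitochondrial form. Ak1 is the cytosolic adenylate kinase of muscle, and Ak3 the enzyme of the mitochondrial matrix that uses GTP. The members examined here were the probe sets annotated to exactly 1 of these 6 gene symbols. They came to 5 genes of 10411 named on the array, with 5 of its 15923 probe sets, 1 each for Ckm, Ckb, Ckmt1, Ckmt2 and Ak3. Ak1 was not analysed here.

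RNA was taken by laser microdissection from the extraocular muscles, which turn the eye, of adult rats. The orbital layer, on the side of the bony orbit, gave 4 captures by the labels, and the global layer, on the side of the eyeball, gave 4. The titles of orbital captures 3 and 4 differ only by an added suffix, and the labels do not say whether they are separate captures or repeats of 1, so the orbital n of 4 may be 3. The tests of layer differences and of ratios over all captures were therefore repeated with both averaged as 1 sample. A result that this changes is given with that value. Tests that use the title number were not repeated in this way. The labels state no strain, treatment or number of animals for either layer, and they do not tie captures to animals. P-values below reflect no more than the variation among these captures, and are too small should several captures come from 1 animal. The 8 samples were each run on 1 array after amplification, and their number limits the precision. The titles carry the number 2 (orbital captures 1 and 2, global captures 1 and 2) or 3 (captures 3 and 4 of each layer), whose meaning the labels do not give. All 8 measured contractile muscle markers of both layers lay clear of background, with summed intensities of 53948 to 77583 in orbital and 57594 to 82471 in global captures. Median probe set intensity was 58.8 to 64.5 on orbital and 59.2 to 66.3 on global arrays. The Gapdh 3′ to 5′ ratio, which rises as RNA is shortened, was 5.81 to 12.9 in orbital and 5.35 to 6.47 in global captures. The same ratio for beta-actin was 7.87 to 9.16 in orbital and 7.69 to 10.7 in global captures, so the 2 controls differ on the layers. The tissue is a mixture, so fewer cells of a type and less RNA per cell cannot be told apart.

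The promoters of the muscle cytosolic, the sarcomeric mitochondrial and the brain-type creatine kinase are shown because these 3 genes enter the comparisons of isoforms below. They come from RefSeq on the rat build GRCr8 and run 5′ to 3′ from 250 bases before to 50 bases after the start used in its promoter table. That start is the annotated gene start for Ckmt2 and Ckb, and lies 79 bases inside the annotated gene for Ckm. Capitals mark CAGCTG, a form of the E box to which myogenic regulators bind, and TATAA, a core of the TATA box, each searched on both strands (TATAA also as TTATA). No capitals stand where these motifs were absent from the window.
Ckm, chr1:88189211-88189510, plus strand: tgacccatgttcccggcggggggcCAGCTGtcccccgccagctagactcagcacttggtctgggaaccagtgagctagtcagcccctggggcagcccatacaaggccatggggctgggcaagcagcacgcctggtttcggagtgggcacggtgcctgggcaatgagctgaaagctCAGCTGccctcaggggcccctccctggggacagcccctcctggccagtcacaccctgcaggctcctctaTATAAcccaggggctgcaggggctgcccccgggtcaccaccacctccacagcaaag
Ckmt2, chr2:24845462-24845761, minus strand: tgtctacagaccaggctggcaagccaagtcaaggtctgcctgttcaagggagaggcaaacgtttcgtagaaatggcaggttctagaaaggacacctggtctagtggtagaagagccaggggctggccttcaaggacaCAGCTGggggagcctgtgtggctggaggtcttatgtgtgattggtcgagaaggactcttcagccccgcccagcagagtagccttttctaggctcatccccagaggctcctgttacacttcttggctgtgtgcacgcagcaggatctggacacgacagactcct
Ckb, chr6:136553415-136553714, minus strand: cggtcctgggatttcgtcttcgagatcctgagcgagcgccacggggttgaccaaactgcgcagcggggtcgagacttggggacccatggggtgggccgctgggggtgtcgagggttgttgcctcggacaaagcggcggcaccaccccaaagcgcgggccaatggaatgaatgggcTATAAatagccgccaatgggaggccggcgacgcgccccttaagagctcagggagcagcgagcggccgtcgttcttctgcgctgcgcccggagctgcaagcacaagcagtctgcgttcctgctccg
CAGCTG occurred 2 times in the Ckm window, 1 time in that of Ckmt2 and 0 times in that of Ckb. TATAA occurred 1 time each in the Ckm and Ckb windows and 0 times in that of Ckmt2. Of 33469 rat promoter windows of this length, 15.1% held CAGCTG and 26.2% held TATAA, so a match is a description and not a site.

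None of the members tested passed the test between the layers. Intensities were compared as log2(intensity + 1) in limma over 9520 probe sets, and a probe set was called at a Benjamini-Hochberg adjusted p under 0.05. Of the 4 members tested 0 were called, where 7.41% of all tested probe sets were. At an unadjusted p under 0.05 the count was 1 of 4 (Ckm), against 21.6% of all tested probe sets. In 0 of the 5 did the captures of one layer lie wholly above those of the other, a pattern seen in 14.1% of the tested probe sets. Differences below are orbital minus global on the log2 scale, with the standard error (SE), the 95% confidence interval and n = 4 captures per layer. A p that misses the threshold does not show that the layers have the same level.

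Ckm, which rebuilds ATP from phosphocreatine at the sarcomere, had intensities of 4386.9, 2114.8, 4164.7 and 4440.1 in orbital captures 1 to 4, against 4971.0, 3579.9, 7016.9 and 6832.1 in global captures 1 to 4. Orbital capture 2 was below every global capture, while the other 3 orbital captures lay between global captures 2 and 1. The mean was 3777 ± 1114 (SD, n = 4) in orbital captures and 5600 ± 1633 in global captures. The difference was -0.58 ± 0.26 (SE), with an interval of -1.14 to -0.02 and a limma adjusted p of 0.2145. Of all tested probe sets 5.17% had a lower difference than Ckm, and 11.9% lay at least as far from 0 in either direction. It was -0.47 among captures with title number 2 and -0.69 among those with number 3. Without orbital capture 2 it was -0.32 (adjusted p = 0.447), and without global capture 2 it was -0.78 (adjusted p = 0.0808). Ckm is most abundant in fast fibres, and markers of fast and of slow fibres also differed between the layers. Of 11 fast fibre markers 6 fell and 0 rose (median -0.82), with summed intensities of 36285 to 53078 in orbital and 61596 to 104820 in global captures. Of 9 slow fibre markers 5 fell and 2 rose (median -1.08), with sums of 17363 to 23475 in orbital and 19722 to 34294 in global captures. No marker of either list was listed at 0, and the part of fibre make-up in the Ckm values was not tested.

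Ckmt2 couples ATP made in mitochondria to creatine for export to the cytosol. Its intensities were 11771.4, 7448.0, 8455.9 and 11938.7 in orbital captures 1 to 4, against 7856.7, 7862.1, 8091.1 and 9379.1 in global captures 1 to 4. Orbital captures 1 and 4 were above every global capture, orbital capture 2 was below all of them, and orbital capture 3 lay among them. The mean was 9904 ± 2292 (SD, n = 4) in orbital captures and 8297 ± 730 in global captures. The difference was 0.23 ± 0.17 (SE), with an interval of -0.14 to 0.60 and a limma adjusted p of 0.488. The interval leaves room for a level 1.52 times that of the global layer and for one 0.906 times it. By title number the difference was 0.25 for number 2 and 0.21 for number 3. Of all tested probe sets, 46.4% lay at least as far from 0.

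**Figure D1:**
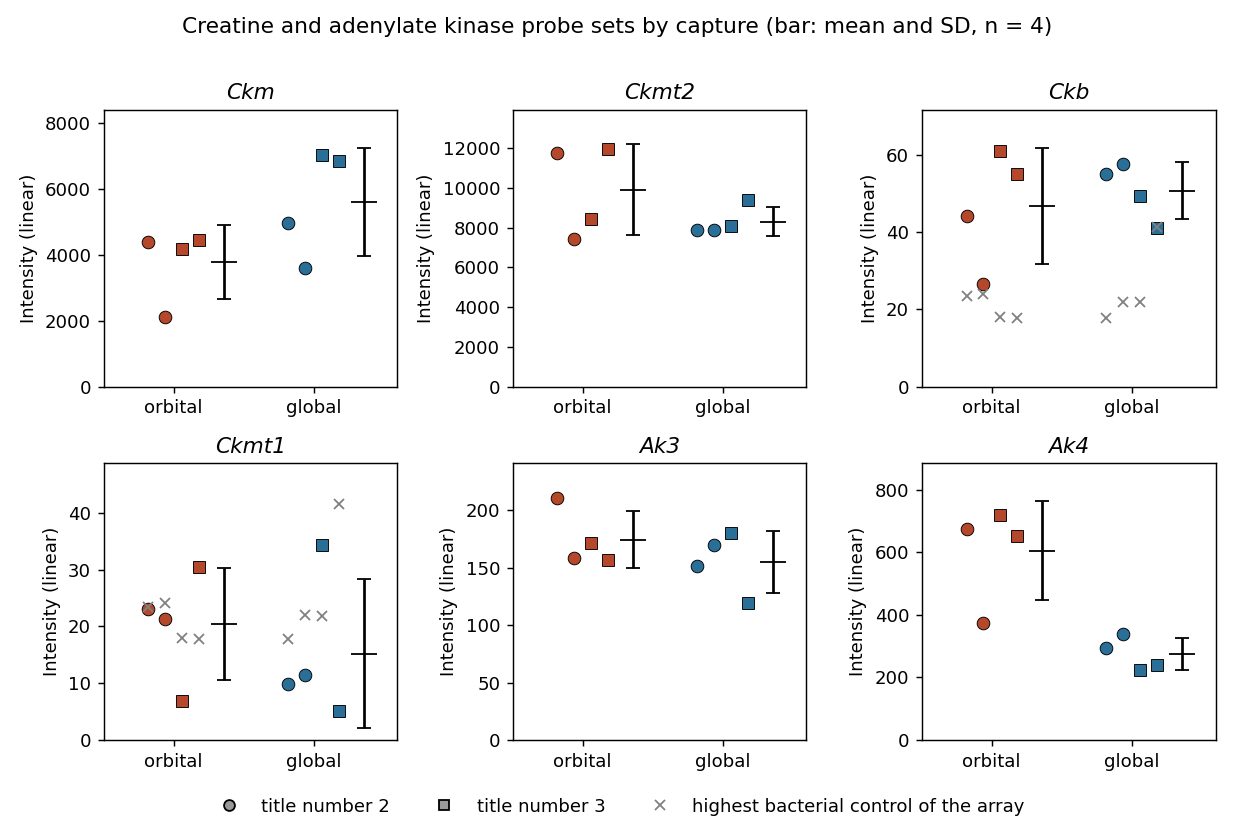
Intensity (linear scale, from 0) of the probe sets of Ckm, Ckmt2, Ckb, Ckmt1, Ak3 and Ak4 in each orbital and global capture, with circles for title number 2, squares for number 3, and the mean and SD (n = 4) beside the points. The layers overlap for the 5 members, and for Ak4 the orbital captures (373.4 to 719.1) lie above the global ones (225.4 to 338.4). Grey crosses in the Ckb and Ckmt1 panels are the highest bacterial control probe set of each array.

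The 2 creatine kinases of the muscle fibre had point estimates of opposite sign, and their ratio was compared within each capture, where the scaling of the array cancels. The ratio itself mixes the brightness of different probes, and only its change between layers can be read. Ckmt2 over Ckm was 2.68, 3.52, 2.03 and 2.69 in orbital captures 1 to 4, against 1.58, 2.20, 1.15 and 1.37 in global captures 1 to 4. Of the orbital captures 3 lay above every global capture, and orbital capture 3 lay below global capture 2. On the log2 scale the mean was 1.42 ± 0.32 (SD, n = 4) in orbital captures and 0.61 ± 0.39 in global captures, a difference of 0.81, or a ratio 1.75 times as high. The exact permutation test gave p = 0.0571 (two-sided), and 0.114 after Benjamini-Hochberg adjustment over the 2 ratios compared, so the difference did not pass. The smallest p that 4 against 4 captures allow is 0.0286. With orbital captures 3 and 4 averaged the difference was 0.87 with an adjusted p of 0.114, where 3 against 4 samples allow an exact permutation p no lower than 0.0571. Among captures of the same title number the layers did not overlap, with a difference of 0.72 for number 2 and of 0.89 for number 3.

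**Figure D2:**
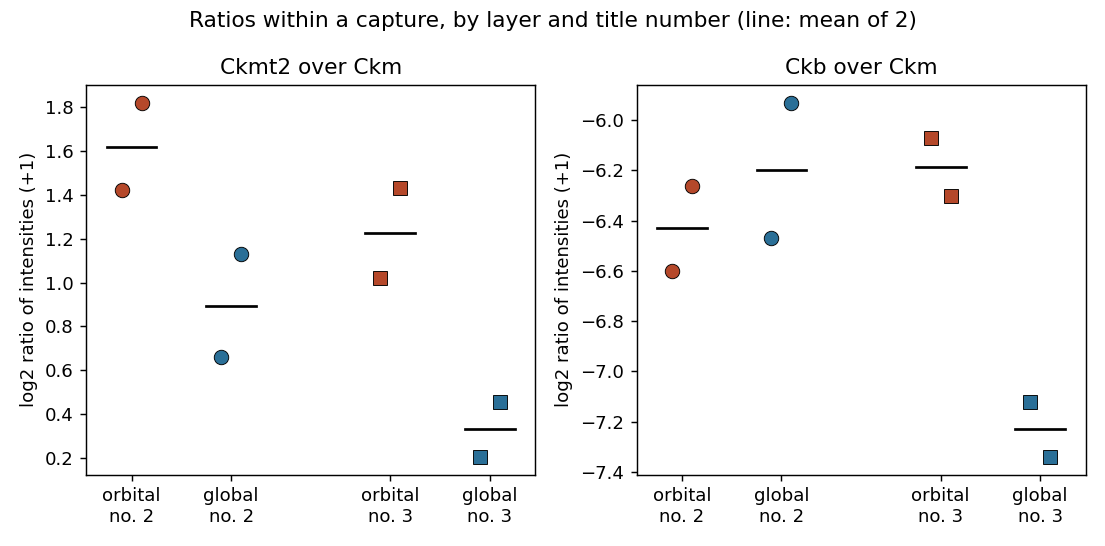
Log2 ratio of Ckmt2 over Ckm and of Ckb over Ckm within each capture (vertical axis), by layer and title number, with a line at the mean of each 2 captures. For Ckmt2 over Ckm both orbital captures lie above both global captures within each title number, and for Ckb over Ckm they do so for number 3 alone.

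Ckb gave a dim signal. Its intensities were 44.3, 26.7, 61.0 and 55.2 in orbital captures 1 to 4, against 55.1, 57.8, 49.4 and 41.1 in global captures 1 to 4, and both the lowest and the highest value were orbital. The array background can be read from 27 probe sets for bacterial transcripts, whose highest value per array was 17.7 to 24.1 on orbital and 17.7 to 41.5 on global arrays. Ckb was above that value on 7 of 8 arrays, the exception being global capture 4. The difference was -0.17 ± 0.28 (SE, interval -0.77 to 0.43, limma adjusted p = 0.780, n = 4 per layer). It was -0.70 for title number 2 and 0.36 for number 3, and a limma test of the change between the numbers gave an unadjusted p of 0.0577 and an adjusted p of 0.9999. Ckb over Ckm was higher in the orbital captures by 0.41 on the log2 scale (exact permutation p = 0.286, 0.286 adjusted over the 2 ratios), with -0.23 for number 2 and 1.05 for number 3. It was 0.20 without global capture 4, 0.27 without global capture 3 and 0.67 without global capture 2.

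Cells other than muscle fibres also express Ckb, and their markers varied among the captures. Rod photoreceptor markers summed to 382.9 to 1609.9 in orbital and 36.7 to 922.9 in global captures, with 0 of 3 tested called. Smooth muscle and pericyte markers summed to 1229.6 to 1517.5 in orbital and 1560.1 to 1778.7 in global captures, with 1 of 9 lower (Myh11) and 0 higher. Myh11 alone had 93.6 to 215.9 in orbital and 349.2 to 511.2 in global captures. The other tested markers of that list went in both directions, with differences from -0.73 to 0.40. Of 7 Schwann cell and nerve markers tested 2 were higher (Cnp and Nefm), with sums of 2905.8 to 5296.8 in orbital and 1592.9 to 4905.8 in global captures. No marker of these lists was listed at 0, and their part in the Ckb values was not tested.

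Ckmt1 was not separable from background. Its intensities were 23.1, 21.3, 6.9 and 30.4 in orbital captures 1 to 4, against 9.9, 11.4, 34.4 and 5.1 in global captures 1 to 4. It exceeded the highest bacterial control on 2 of 8 arrays (orbital capture 4 and global capture 3). Its mean log2 value was under the filter for the test, and a fit without that filter gave 0.55 ± 0.60 (SE, limma adjusted p = 0.731, n = 4 per layer). Of the mitochondrial creatine kinases only Ckmt2 could therefore be compared.

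Ak3, which phosphorylates AMP with GTP in the mitochondrial matrix, was above background on all 8 arrays. Its intensities were 210.2, 158.3, 171.4 and 156.8 in orbital captures 1 to 4, against 151.7, 169.7, 180.3 and 118.9 in global captures 1 to 4. Orbital capture 1 was above every global capture and the other 3 lay among them. The mean was 174.2 ± 24.9 (SD, n = 4) in orbital captures and 155.2 ± 26.9 in global captures, and the difference was 0.17 ± 0.17 (SE, interval -0.19 to 0.53, limma adjusted p = 0.606). Ak3 had the lowest spread of the members, with a within-layer SD of 0.232 on the log2 scale, beside 0.257 for Ckmt2, 0.396 for Ckb, 0.488 for Ckm and 0.97 for Ckmt1.

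Around the kinases, 7 lists of genes for creatine supply, nucleotide kinases, mitochondrial exchange, energy sensing, AMP removal and M-band anchoring held 33 tested genes, each taken by its brightest probe set. Of these 5 rose and 7 fell in the orbital layer, where 4.09% of all 7163 tested genes were called higher and 3.59% lower. The lists were chosen with earlier results of these data known, so an excess over these shares is no independent test. The median difference over all tested genes was 0.02. The 3 genes of creatine supply had a median of 0.62, and 0 of 3 were called. Slc6a8, the creatine transporter, had the brightest probe set of these, with means of 1071 in orbital and 902.3 in global captures. It differed by 0.26 (limma adjusted p = 0.347), and its dimmer probe set by 0.51 (adjusted p = 0.164). Gatm, which makes the creatine precursor guanidinoacetate, had 88.3 ± 10.7 (SD, n = 4) in orbital captures and 57.8 ± 13.4 in global captures (0.62 ± 0.21, limma adjusted p = 0.0910). It was called in 1 of 19 alternatives, without global capture 4 (0.77, adjusted p = 0.0375), and not in the other 18. With a pseudocount of 64 the Gatm difference was 0.33. Gamt, which methylates that precursor to creatine, differed by 0.78 (adjusted p = 0.335), and was dim, with means of 53.5 in orbital captures and 35.5 in global captures. Global capture 3 had 9.2, against 38.5 to 47.8 in the other global captures, and without it the difference was 0.25 (adjusted p = 0.675). With a pseudocount of 64 it was also 0.25 (adjusted p = 0.314).

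Ak4, a matrix relative of Ak3, was the other adenylate kinase measured by a probe set of its own. Its brighter probe set had 675.8, 373.4, 719.1 and 653.6 in orbital captures 1 to 4, against 295.3, 338.4, 225.4 and 241.1 in global captures 1 to 4. The layers did not overlap, and orbital capture 2 was nearest to the global range. The difference was 1.11 ± 0.20 (SE, n = 4 per layer, limma adjusted p = 0.00451), and Ak4 rose. It was 0.67 for title number 2 (adjusted p = 0.378 on those captures alone) and 1.55 for number 3, and a limma test of the change between the numbers gave an unadjusted p of 0.0320 and an adjusted p of 0.9999. A second Ak4 probe set stayed at 1.5 to 4.9 in orbital and 2.4 to 3.6 in global captures, which is background. Beside this rise, 1 of 8 endothelial markers (Eng) and 1 of 10 fibroblast and matrix markers (Fmod) were higher and 0 lower. Endothelial markers summed to 1168.7 to 1574.0 in orbital and 1145.2 to 1236.2 in global captures, and fibroblast and matrix markers to 5908.4 to 8636.2 in orbital and 4362.4 to 7994.9 in global captures. None of these markers was listed at 0, and their part in the Ak4 difference was not tested.

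The nucleoside monophosphate and diphosphate kinases had a median of -0.13, with 2 of 7 higher and 0 lower. Guk1, which phosphorylates GMP, differed by 0.60 (limma adjusted p = 0.0205) and Nme1, a nucleoside diphosphate kinase, by 0.54 (adjusted p = 0.0236). The Guk1 call was lost on leaving out orbital capture 1, 3 or 4 or global capture 1 or 3 (adjusted p 0.0519 to 0.0637) and in a variance model without trend (0.0506), and that of Nme1 on leaving out capture 1 or 4 of either layer (0.0527 to 0.0751). Nme1 and Nme2 are near-identical over much of their sequence, so their probe sets may share signal and their separate levels are uncertain.

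Of 6 genes for the exchange of ATP, ADP and phosphate across the mitochondrial membranes, on which Ckmt2 draws, 1 rose and 1 fell, with a median of -0.16. Slc25a5, an adenine nucleotide carrier found in many tissues, had 1279.1, 1090.8, 1235.8 and 1195.0 in orbital captures 1 to 4, against 713.8, 658.1, 557.1 and 818.1 in global captures 1 to 4. It rose without overlap, by 0.82 ± 0.13 (SE, limma adjusted p = 0.00245). Slc25a4, an adenine nucleotide carrier with a brighter probe set, was not called. Its means were 10030 in orbital and 9861 in global captures (difference 0.0065, adjusted p = 0.987). Vdac1, a pore of the outer membrane, had 667.5, 731.6, 474.9 and 953.0 in orbital captures 1 to 4, against 1416.4, 1478.5, 2103.7 and 1894.7 in global captures 1 to 4. The layers did not overlap, and Vdac1 fell by 1.31 on the log2 scale (SE 0.20, limma adjusted p = 0.00138).

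AMP, a product of the adenylate kinase reaction, is removed by deamination and is rebuilt from IMP in the purine nucleotide cycle. Of 6 genes of AMP deamination and the purine nucleotide cycle 2 fell and 0 rose, with a median of -0.19. Ampd1, the AMP deaminase of muscle, had 461.3, 390.4, 560.2 and 374.7 in orbital captures 1 to 4, against 1790.3, 1268.0, 1884.9 and 1579.2 in global captures 1 to 4 (-1.87 ± 0.16, limma adjusted p = 3.16e-05). Adss1, the muscle adenylosuccinate synthase, which acts on IMP in the steps that restore AMP, differed by -0.94 (adjusted p = 0.00290). Of 6 genes of AMP-activated protein kinase, the sensor of AMP, and a kinase upstream of it, 2 fell and 0 rose, with a median of -0.67. Prkag2, a regulatory subunit, differed by -1.15 (adjusted p = 0.0169) and Prkaa2, a catalytic subunit, by -0.88 (adjusted p = 0.0312). Prkag2 was dim, with means of 43.45 in orbital and 98.62 in global captures. With a pseudocount of 64 the Prkag2 difference was -0.58 (limma adjusted p = 0.0161). The Prkag2 call was lost without global capture 3 (0.0606), and that of Prkaa2 on leaving out orbital capture 2, 3 or 4 or global capture 1, 3 or 4 (0.0699 to 0.0965). Prkaa2 also lost its call with orbital captures 3 and 4 averaged (0.0746), without the filter on intensity (0.0532) and without trend (0.0657).

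RNA levels of genes for proteins of the M band, where part of muscle creatine kinase is bound, went in both directions. Myom1, myomesin, rose by 0.81 (limma adjusted p = 0.00381), while Myom2, the M protein, differed by -4.59 (adjusted p = 0.000307) and Ttn, the giant spring that spans to the M band, by -0.70 (adjusted p = 0.00980). Myom2 had 630.9 in orbital capture 3, against 71.6 to 81.2 in the other orbital captures and 2063.5 to 5546.9 in global captures. Without that capture the Myom2 difference was -5.35. The capture had the highest Gapdh 3′ to 5′ ratio (12.9), while its beta-actin ratio was 8.32, within the range of the others. Among fast fibre markers it was also apart from the other orbital captures in Actn3 (3638.7, against 518.9 to 758.3). So it was in the brighter Mybpc2 probe set (1159.6, against 365.8 to 553.2), while Atp2a1 and Myoz1 were highest in orbital capture 4. In slow fibre markers, the brighter Myh7 probe set had 4646.8 in orbital capture 3, against 2300.7 to 2683.1 in the other orbital captures. The brighter Tnni1 probe set had 2277.5 there, against 1143.3 to 1579.4, while the brighter Pln probe set was lowest there (192.2). The part of RNA quality and of the fibres captured in the Myom2 value was not tested. The Ttn call was lost without the filter on intensity (adjusted p = 0.0604). Of the 4 genes tested 1 rose and 2 fell, with a median of -0.78.

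**Figure D3:**
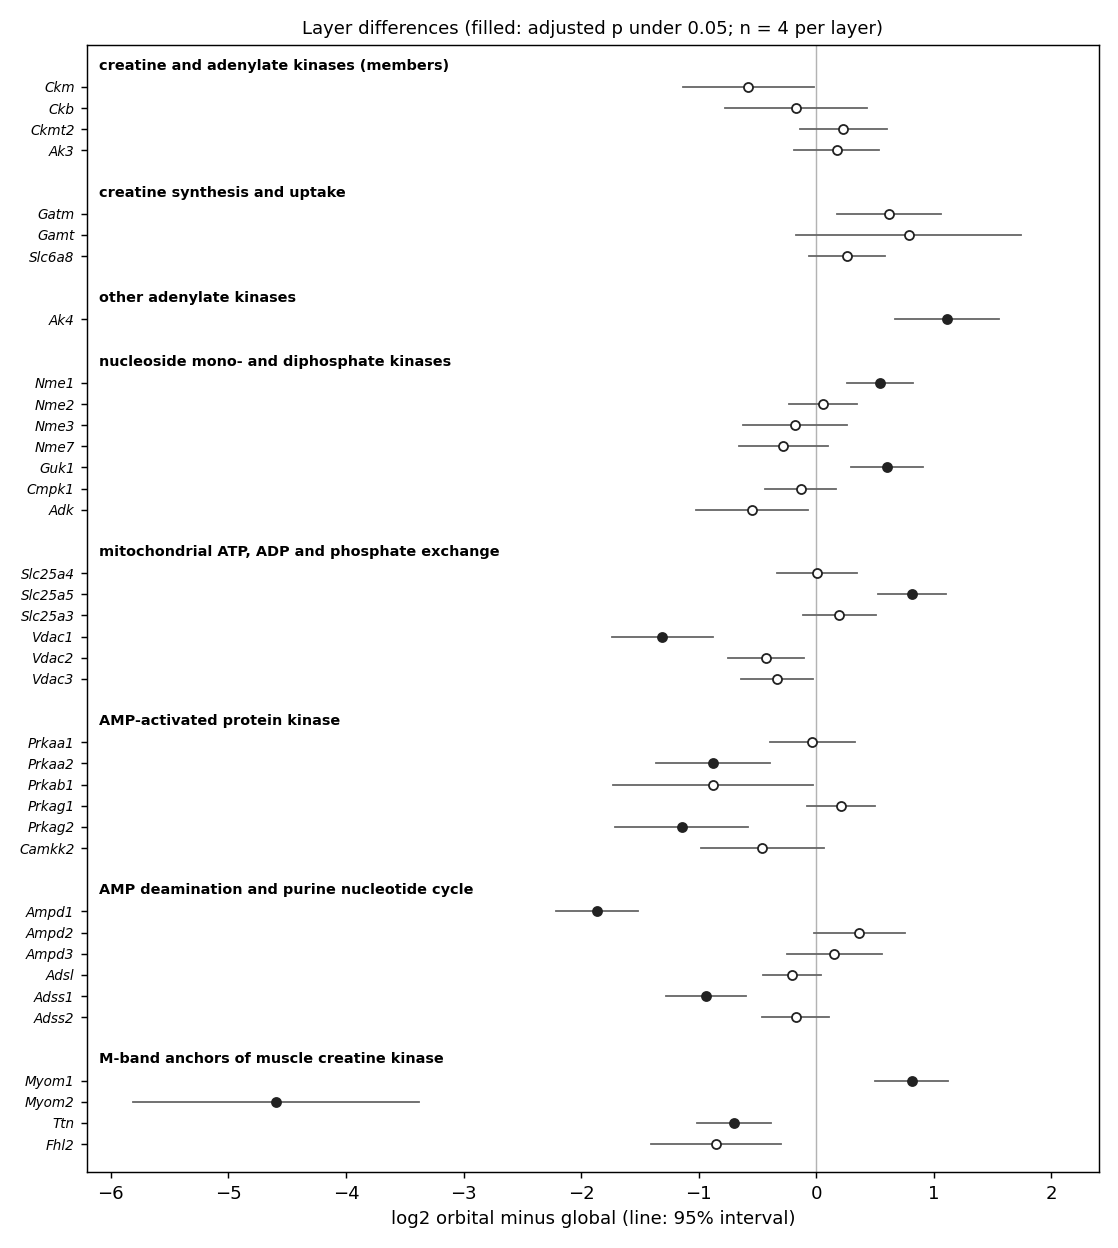
Log2 difference, orbital minus global, with its 95% interval for the 4 members tested and the 33 genes of the related lists (n = 4 captures per layer), filled where the adjusted p is under 0.05. The intervals of Ckb, Ckmt2 and Ak3 include 0 and that of Ckm ends at -0.02, and 12 of the related genes are filled.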

How the data were processed

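Probe set intensities of 8 laser captures were analysed, 4 of the orbital and 4 of the global layer, grouped by the source given in the labels and numbered in accession order. Per the labels, RNA amplification was T7-based and each sample was run on an Affymetrix RAE230A array with 1 colour. The deposited values are linear intensities, 1 for each probe set and array, and the summarising software is not given in the sources used here. The arrays had been scaled, since their 2% trimmed means spanned 0.00389% of the mean, and were used as deposited. After amplification and scaling a level can be read only relative to the rest of its array.

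After removal of 57 controls from the 15923 probe sets, the 9520 with a mean log2 value at or above the 40th percentile (intensity 39.4) were tested with limma 3.58.1 (R 4.3.3; lmFit, eBayes with trend) on log2(intensity + 1), in a model of layer alone with Benjamini-Hochberg adjustment. Fold changes of dim probe sets depend on the pseudocount. Names came from the platform annotation, which can be old and gave 12783 probe sets a single symbol, 312 several and 2771 none. Ratios were compared by exact permutation tests (scipy 1.17.1). The members, gene lists and tests were chosen with earlier results of these data known. Named genes were all members, list genes that passed, and up to 2 with the smallest p where none did. Slc25a4 was named in addition, beside Slc25a5, and Slc6a8 beside Gatm and Gamt. Genes most like a called member were to be named, and no member was called. Alternatives were normalization, pseudocount, filter, variance model, title number as a block or alone, averaging of orbital captures 3 and 4 (possible repeats by their titles), and each capture left out.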

Additional observations from a re-analysis of the deposited data

Results flagged for a closer look

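Among 16 groups of 4 captures examined, 3 held a capture far from the other 3 relative to the group's range. Chance flags about 1 group in 20, and the groups share arrays, so they are not independent. Ckm in orbital capture 2 was the lowest of its layer, with a gap to the next capture of 0.914 of the layer's whole log2 range. Ak4 was also lowest in orbital capture 2, with a gap of 0.854 of the range. Ckmt2 was highest in global capture 4, with a gap of 0.834 of a narrow range (9379.1, against 7856.7 to 8091.1 in the other global captures). The 100 brightest probe sets held 17.3% of the summed intensity in orbital capture 2, against 18.4% to 22.2% in the other 7 captures. Ckb moved opposite ways by title number: both orbital captures lay below the global mean for number 2 and above it for number 3, a difference in log2 change of 1.05, which a limma interaction term did not call (adjusted p = 0.9999).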

How the results depend on the processing

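The count of called members was 0 under all 20 alternatives, with Ckb not tested under the filter at the 60th percentile. The difference of Ckm stayed between -0.78 and -0.32, that of Ckmt2 between 0.13 and 0.36 and that of Ak3 between 0.05 and 0.25. That of Ckb turned positive with title number 3 alone (0.36) and without orbital capture 2 (0.071), and the cause was not tested. Over all probe sets, 705 calls became 106 with title number 2 alone and 170 with number 3 alone, which use fewer captures, and 461 to 725 on leaving out 1 capture, lowest without global capture 3. With the title number as a replicate block, 745 probe sets and 0 members were called (Ckm adjusted p = 0.105), and deviations from the layer means correlated across layers with r = 0.161 over probe sets, which are not independent. Within title numbers the ratio of Ckmt2 over Ckm gave an exact permutation p of 0.0556, the smallest that design allows. Chosen after seeing the data, that test and the averaging of orbital captures 3 and 4 left the difference of the ratio at 0.81 and 0.87. Over 13 alternatives it was 0.67 to 0.98. Of the 12 related genes called, 4 passed with title number 2 alone and 5 with number 3 alone, and all 12 kept their direction in both. The orbital captures with number 3 may be repeats of 1, so calls with number 3 alone may rest on 1 orbital sample. Signal close to background limits Ckb and Ckmt1.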
